A study of Mus musculus with 4 samples.

Results

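Arterial endothelial cells line the arteries, and those described here come from the AGM (aorta-gonad-mesonephros), a tissue of the mid-gestation mouse embryo that contains the dorsal aorta. They were chosen from single-cell RNA sequencing of CD31+ cells of E11.5 C57BL/6J embryos, sorted by the intensity of TMRM, a dye drawn into mitochondria by their membrane potential, with a low gate (MMPlow) and a high gate (MMPhigh). Each gate had 2 libraries, prepared by 3' v3 chemistry of 10x Genomics, the labels give no other genotype or treatment, and they do not say whether the libraries of a gate came from separate embryos or pools. P-values for genes then measure only how differences between sets of cells varied from library to library, with the library as a block. Those for shares of cells measure the spread between libraries. Both kinds of spread may be technical. A barcode was retained with at least 2000 unique molecular identifiers (UMIs, each standing for a captured mRNA molecule), 1000 or more genes and a mitochondrially encoded share below 25%. A retained cell was endothelial if it had no UMI of Ptprc, which encodes the pan-leukocyte protein CD45, at least 3 of Cdh5, Pecam1, Tie1, Egfl7, Kdr and Esam, and at least 8 UMIs of these genes per 10000. It was arterial if it also had at least 2 of Gja4, Gja5, Sox17, Unc5b, Hey2 and Dll4. Cells with at least 2 UMIs of Prox1 or Runx1, with at least 2 of Tll1, Flrt2, Adgrg6 and Lhx6, or with at least 2 of Apcdd1, Foxq1 and Lef1 were left out. The rule gave 1639 arterial cells among 17003 endothelial and 44168 retained cells.

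Arteries acquire their identity early in the embryo, largely through VEGF, SoxF and Notch signalling. VEGF and the SoxF transcription factors raise the ligand Dll4 and the receptors Notch1 and Notch4, and the cleaved Notch receptor joins the DNA-binding protein RBPJ to switch on the repressors Hey1 and Hey2. Arterial cells carry the membrane ligand ephrin-B2 (Efnb2), whereas veins carry its receptor EphB4 and depend on the nuclear receptor COUP-TFII (Nr2f2). In the AGM the arterial wall is also the place where haemogenic endothelium, marked by Runx1, gives rise to the first haematopoietic stem cells.

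The 4 libraries held 102083810 to 120168395 UMIs, except MMPhigh 1 with 51800709. After filtering, 16700 and 19579 cells of MMPlow 1 and 2 and 4403 and 3486 cells of MMPhigh 1 and 2 were retained, with medians of 3145, 3741, 3685 and 24044 UMIs. The last value sets MMPhigh 2 apart in depth. Between 7 and 89 retained barcodes were shared by each pair of libraries, and no barcode was arterial in both libraries of a pair. Among the arterial cells, 32 of MMPlow 1 and 42 of MMPlow 2 had a doublet score in the highest 6% of their library, and none of MMPhigh did.

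Nearly all of the arterial cells came from the low gate. MMPlow 1 and 2 gave 677 and 949 of them, and MMPhigh 1 and 2 gave 9 and 4. Just above the rule's threshold, 1074 cells (65.5%) had exactly 2 of the 6 arterial genes, 396 (24.2%) had 3, 137 had 4, 28 had 5 and 4 had all 6. Of the 2221 endothelial cells with at least 2 arterial genes, 88 were left out by Runx1, 43 by Prox1, 274 by the Tll1 set and 177 by the Apcdd1 set. Just below the threshold, 3100 of the other endothelial cells had a single arterial gene and 5624 had none.

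The 6 genes of the rule chose the cells, so their levels are a description and were not tested. Levels here are in CPM, the UMIs of a gene summed over the cells of a class in a library, per 1000000 UMIs of that class and library. Gja4 and Gja5 encode connexins, the proteins of gap junctions. Gja4 was at 258 and 229 CPM in the arterial cells of MMPlow 1 and 2 and at 17.0 and 12.9 CPM in the other endothelial cells, and Gja5 was at 97.2 and 93.5 against 6.42 and 5.14 CPM. Sox17, a SoxF transcription factor, was at 166 and 182 against 44.4 and 55.8 CPM. Unc5b, a netrin receptor that restrains sprouting, was at 209 and 187 against 30.7 and 28.5 CPM. Dll4, the endothelial Notch ligand, was at 94.9 and 92.4 against 11.3 and 10.4 CPM, and its target Hey2 was the sparsest of the 6, at 15.4 and 17.9 against 1.28 and 0.696 CPM. A UMI of Gja4, Sox17 or Unc5b was found in 54.8% to 62.8% of arterial cells per library, one of Dll4 in 36.9% and 38.5%, one of Gja5 in 26.4% and 25.8% and one of Hey2 in 6.06% and 7.48%. Arterial identity was thus read from different pairs of genes in different cells. Raised levels of single rule genes were also seen outside the class. The cells set aside by Apcdd1, Foxq1 and Lef1 had Gja4 at 100.6 and 96.5 CPM and Sox17 at 112 and 106 CPM, and those set aside by Prox1 had Unc5b at 80.0 and 86.2 CPM.

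**Figure D1:**
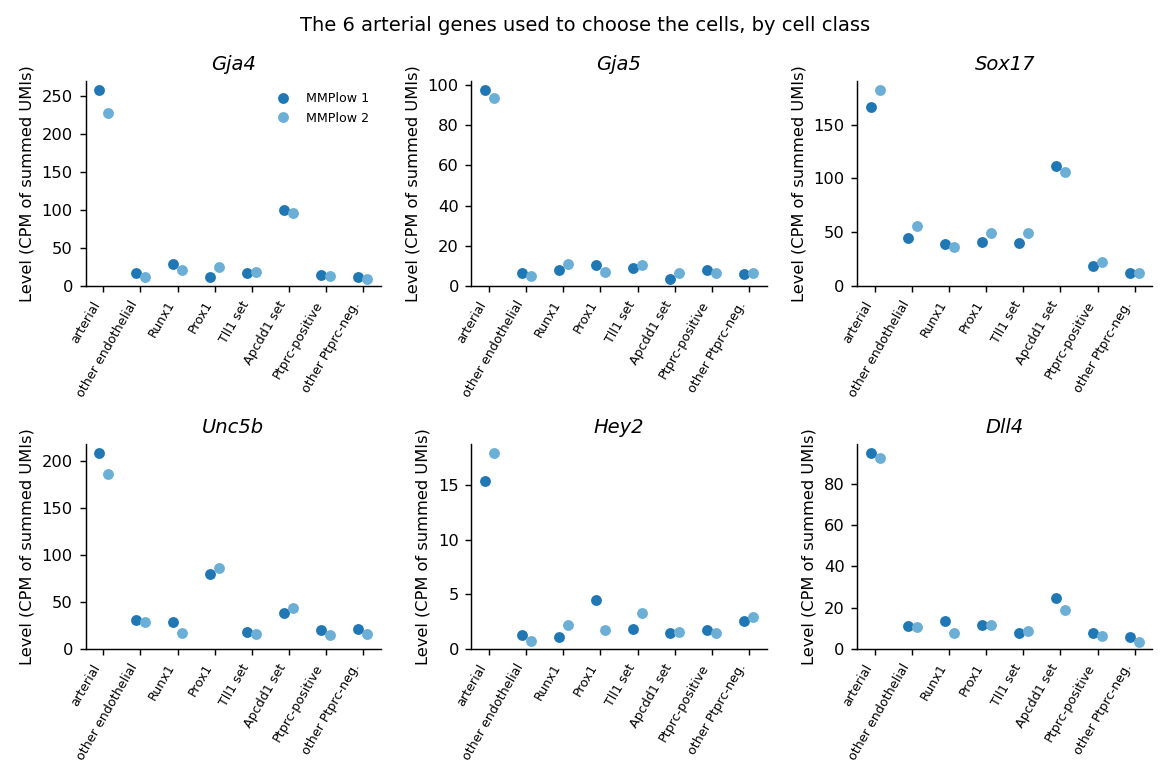
Levels of the 6 arterial genes of the rule in the 6 endothelial classes and the 2 classes of other cells of MMPlow 1 and MMPlow 2, in CPM, with 1 point per library. Since the rule used these genes, the height of the arterial points (Gja4 at 258 and 229 CPM, Hey2 at 15.4 and 17.9 CPM) is a description of the choice.

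Efnb2 and Hey1, which the rule did not use, followed the number of rule genes detected. In cells just inside the threshold, with exactly 2 arterial genes, Efnb2 was detected in 63.2% and 66.6% of the cells of MMPlow 1 and 2, and in cells with 3 or more in 78.3% and 81.8%. Just outside it, the share was 46.8% and 47.5% in other endothelial cells with 1 arterial gene and 31.5% and 36.2% in those with none. Hey1 stood at 16.4% and 16.9%, 27.9% and 37.3%, 5.58% and 8.18%, and 2.92% and 3.98% of the same 4 sets of cells. Nrp2, the coreceptor of veins and lymphatic vessels, ran the other way, with 43.9% and 46.1% just inside the threshold, 26.5% and 29.9% at 3 or more genes, and 59.6% and 64.3% just outside. Nr2f2, the venous nuclear receptor, stood at 26.2% and 29.2% just inside the threshold, 19.5% and 18.5% at 3 or more genes, 27.2% and 35.2% just outside and 31.4% and 34.6% in cells with none. Each rule gene was detected in a part of the arterial cells only, and whether the cells form separate groups or a continuum was not tested. Median depth also differed a little, at 3756 and 4096 UMIs per arterial cell against 3089 and 3434 per other endothelial cell, so every comparison of classes was repeated after thinning each cell to 2000 UMIs before the rule was applied.

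The promoters in RefSeq (GRCm38.p6) give a view of the sequence near the start of transcription. They were taken for the arterial genes in and outside the rule, whether or not their levels differed, and for the leading genes below. The window ran from 250 bases before to 50 bases after the start, and was searched on both strands for TGGGAA, the core of the motif that RBPJ binds (TTCCCA on the other strand). The core occurred in 25.6% of all 32851 promoters of this length. Of the 24 arterial genes listed outside the rule, 20 had an entry, and 7 of their 22 promoters held it (31.8%). Among these 7 was that of Alox12, which did not pass the test below. Of the 12 genes with the largest upward folds below, 7 had an entry, and 1 of their 14 promoters held it (7.14%). Sox6 gave 6 of these promoters and Ltbp4 3, so this share does not count each gene alike. Of the rule genes, 5 had an entry and 1, Hey2, held the core. The sequences of Hey2, a rule gene, and of Bmx and Dkk2, which had the second and the third largest folds below, are shown 5′ to 3′ on the gene's strand, with the core in capitals, because they span the range from 2 matches to 1 to none.
Hey2, chr10:30842734-30843033, minus strand: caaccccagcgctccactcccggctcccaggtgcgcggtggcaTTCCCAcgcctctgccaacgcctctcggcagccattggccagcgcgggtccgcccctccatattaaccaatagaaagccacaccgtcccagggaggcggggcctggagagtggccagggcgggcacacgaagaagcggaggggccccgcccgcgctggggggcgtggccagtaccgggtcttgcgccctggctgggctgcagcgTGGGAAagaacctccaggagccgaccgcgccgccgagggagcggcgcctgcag
Bmx, chrX:164258144-164258443, minus strand: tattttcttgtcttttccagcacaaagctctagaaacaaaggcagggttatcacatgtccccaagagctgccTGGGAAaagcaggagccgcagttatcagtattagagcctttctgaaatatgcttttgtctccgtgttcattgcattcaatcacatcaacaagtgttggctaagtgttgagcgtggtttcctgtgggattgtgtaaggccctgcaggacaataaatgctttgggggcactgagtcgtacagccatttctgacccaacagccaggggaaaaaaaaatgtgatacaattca
Dkk2, chr3:132085042-132085341, plus strand: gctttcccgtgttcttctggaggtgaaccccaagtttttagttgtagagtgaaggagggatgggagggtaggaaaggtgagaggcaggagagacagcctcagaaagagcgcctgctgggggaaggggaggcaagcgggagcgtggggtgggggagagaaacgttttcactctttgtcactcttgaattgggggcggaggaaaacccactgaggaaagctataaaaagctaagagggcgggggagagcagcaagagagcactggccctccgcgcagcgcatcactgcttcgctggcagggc
A match is a description of the letters and not evidence of binding, and the window without a match says nothing of RBPJ at Dkk2.

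The first comparison asked whether arterial cells were found alike in both gates. They were scarce in the high gate, as all other endothelial cells were. They made up 4.05% of retained cells in MMPlow 1 (exact binomial 95% interval 3.76 to 4.36) and 4.85% in MMPlow 2 (4.55 to 5.16), against 0.204% in MMPhigh 1 (0.0935 to 0.388) and 0.115% in MMPhigh 2 (0.0313 to 0.294). These intervals cover counting error only. The means were 4.45% ± 0.561 (SD, n = 2) and 0.160% ± 0.0634 (SD, n = 2), and the gates did not overlap. On the log2 scale MMPhigh over MMPlow came to -4.75 (SE 0.333), with an adjusted p of 7.34e-08 by edgeR's quasi-likelihood test on cell counts, two-sided, over 8 classes that hold every retained cell. The other 5 endothelial classes fell too, by 6.58 on the log2 scale for the other endothelial cells, 5.57 for the Runx1 class, 3.54 for the Prox1 class, 7.17 for the Tll1 set and 4.04 for the Apcdd1 set. A sort sets these shares, and a share of retained cells moves with every other class.

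Within the endothelium, arterial cells took a larger share in the high gate, on few cells, as did the Prox1 class and the Apcdd1 set. They were 8.71% (8.10 to 9.36) and 10.3% (9.73 to 10.99) of endothelial cells in MMPlow 1 and 2. In MMPhigh 1 they were 9 of 44 endothelial cells, 20.5% (9.80 to 35.3), and in MMPhigh 2 they were 4 of 19, 21.1% (6.05 to 45.6). The difference of the means was 11.2 percentage points, with an exact two-sided permutation p of 0.333, the smallest that 2 libraries against 2 allow. Mean shares of endothelial cells in MMPlow and MMPhigh were 1.92% and 11.3% for the Prox1 class, 5.38% and 18.1% for the Apcdd1 set, 7.86% and 11.3% for the Runx1 class, 23.7% and 11.3% for the Tll1 set and 51.6% and 27.2% for the other endothelial cells, with no test made. The Runx1 class was at 6.82% in MMPhigh 1 and 15.8% in MMPhigh 2, beside 7.75% and 7.97% in MMPlow 1 and 2, so its libraries overlapped. The median depth of the arterial cells of MMPhigh 1 and 2 was 14044 and 18018 UMIs, whereas that of the 17 and 3 other endothelial cells there was 2318 and 8994 UMIs. After thinning every cell to 2000 UMIs the shares were 5.63%, 6.30%, 11.8% and 25%.

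**Figure D2:**
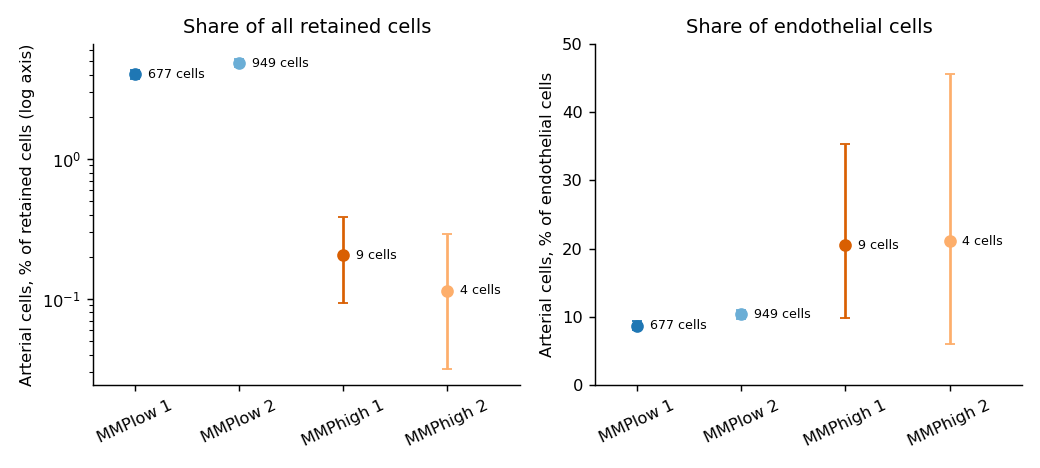
Arterial cells as a percentage of retained cells (log axis) and of endothelial cells in the 4 libraries, with exact binomial 95% intervals that cover counting error only. The share of retained cells lies at 4.05% and 4.85% in MMPlow and at 0.204% and 0.115% in MMPhigh, and the intervals of the share of endothelial cells are wide in MMPhigh.

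The second comparison asked which genes set arterial cells apart from the other endothelial cells of the same libraries. Most members of the arterial list and of the vessel matrix list were higher in arterial cells, as were several BMP and TGF-beta pathway genes, whereas part of the venous and of the cell cycle genes were lower. UMIs were summed per class in MMPlow 1 and MMPlow 2, and the sums were compared by edgeR's quasi-likelihood test with the library as a block. The rule genes took no part in the test, but the same cells were chosen and measured. Of 13548 genes tested, 1817 (13.4%) passed at an adjusted p of 0.05. Of these, 1147 (8.47%) were higher in arterial cells and 670 (4.95%) lower, and the median log2 fold over all genes was -0.01. A log2 fold of 1 or more was reached by 190 genes (1.4%) upwards and by 60 (0.443%) downwards. Without the block 739 genes (5.45%) passed, 569 (4.2%) higher and 170 (1.25%) lower, and DESeq2 called 897. After thinning 1348 of 9461 genes (14.2%) passed, 814 (8.6%) higher and 534 (5.64%) lower.

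Under the naming rule of the processing section, which asks for 20 CPM or more in arterial cells, the 12 largest folds upward were led by arterial genes of several kinds. Tmem100, a transmembrane protein of the BMP pathway in arterial endothelium (chr11:90030348-90036508 in GRCm38), was at 39.4 and 29.7 CPM in the arterial cells of MMPlow 1 and 2 and at 3.73 and 2.89 CPM in other endothelial cells, a log2 fold of 3.39 (SE 0.181, adjusted p = 7.48e-23 by edgeR). Bmx, a Tec-family tyrosine kinase of arterial endothelium and endocardium (chrX:164192842-164258193), was at 29.4 and 30.5 against 3.98 and 2.46 CPM, a log2 fold of 3.27 (SE 0.185, adjusted p = 1.02e-21 by edgeR). Both genes were low in absolute terms in the comparison class. Dkk2, a secreted modulator of Wnt signalling (chr3:132085266-132180304), was at 67.8 and 79.4 against 11.6 and 11.4 CPM, a log2 fold of 2.71 (SE 0.113, adjusted p = 9.65e-28 by edgeR). Sox6, a SoxD transcription factor (chr7:115470872-116040776), was at 221 and 213 against 35.7 and 36.3 CPM, a log2 fold of 2.61 (SE 0.0987, adjusted p = 4.72e-14 by edgeR). Prdm16, a zinc-finger regulator of transcription, rose by 2.28 on the same scale, from 18.3 and 17.2 to 88.2 and 81.5 CPM (edgeR adjusted p = 3.12e-27). The group also held the latent TGF-beta binding protein gene Ltbp4 (2.45), the Notch target Hey1 (2.41), the membrane protein gene Ptchd1 (2.31), the semaphorin gene Sema7a (2.31), the transporter gene Slc45a4 (2.25) and the phosphodiesterase gene Pde3a (2.22), all log2 folds that passed the test. At a minimum of 5000 UMIs per cell Ptchd1 and Pde3a did not pass.

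Downward folds were smaller under the same naming rule, which here asks for 20 CPM or more in other endothelial cells. Nrp2, which binds VEGF-C and semaphorins (chr1:62703317-62818692), fell from 358 and 369 CPM in other endothelial cells to 183 and 163 CPM in arterial cells, a log2 fold of -1.05 (SE 0.0650, adjusted p = 6.67e-20 by edgeR). Egfem1, which encodes a protein with EGF-like domains, had the largest fold under that naming rule, -1.15 (SE 0.245, edgeR adjusted p = 0.00435), on levels of 14.03 and 7.90 against 24.8 and 22.1 CPM. Its libraries were uneven, and it lost its call with DESeq2 and with at least 3 arterial genes required. Pip5k1b, a lipid kinase gene, fell by 1.01 and the ganglioside synthase gene St8sia1 by 1.01. The endothelin receptor gene Ednrb was at 28.4 and 26.3 against 45.7 and 47.1 CPM (-0.76, edgeR adjusted p = 2.57e-07).

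Of the 24 arterial genes listed outside the rule, 20 were higher in arterial cells and none was lower, against 8.47% and 4.95% of all genes. This list, like the others below, was chosen with earlier results of these data known, so the count is not independent support. The lists also share members, such as Hey1, Ltbp4 and Nrp2, so their counts are partly counts of the same genes. The median log2 fold of the arterial list was 1.21, beside -0.01 over all genes. Efnb2, the ephrin ligand that defines arterial endothelium, was at 338 and 353 CPM in arterial and 148 and 157 CPM in other endothelial cells, a log2 fold of 1.21 (SE 0.0608, adjusted p = 4.69e-22 by edgeR). Vegfc, a ligand of the lymphatic VEGF receptor, was at 307 and 340.0 against 76.1 and 92.6 CPM, a log2 fold of 1.96 (SE 0.0577, adjusted p = 7.59e-35 by edgeR). Mecom, a zinc-finger factor of arterial endothelium and haematopoietic stem cells, was at 1152 and 1195 against 468 and 493 CPM, a log2 fold of 1.32 (SE 0.0544, adjusted p = 6.71e-28 by edgeR). For none of these 3 genes did the levels of the 2 classes overlap. With 2 libraries per class this is easily reached, and its share over all genes was not counted. Hey1 was at 64.1 and 71.9 against 10.98 and 14.8 CPM, a log2 fold of 2.41 (SE 0.106, adjusted p = 9.46e-27 by edgeR). The chemokine Cxcl12 was at 28.7 and 25.4 against 12.9 and 11.8 CPM (1.15), and its receptor Cxcr4 was sparser, at 7.68 and 8.32 against 1.73 and 1.18 CPM (2.51). After thinning, a UMI of Cxcl12 was found in 5.02% and 5.37% of arterial cells and in 2.35% and 2.097% of other endothelial cells. It was found in 7.93% and 9.30% of Ptprc-negative cells without any of the 6 endothelial genes, a set that may itself hold cells that make Cxcl12. The arterial share thus lay between those of the other sets, and the part of free RNA in it was not tested. Without thinning the shares were 7.53% and 8.75%, 3.74% and 3.77%, and 12.3% and 15.7% in the same order. The other members that rose included Depp1 (1.77), Igfbp3, which encodes an IGF-binding protein (1.22), and the water channel gene Aqp1 (1.12). The 4 that did not pass were the chaperone gene Clu (log2 fold 0.33), the lipoxygenase gene Alox12 (0.22), the tight junction gene Cldn5 (0.15) and the lumen-formation gene Rasip1 (0.02). After thinning, 18 of the 21 members that could be tested were higher, beside 8.6% of all genes. These markers lay outside the rule, and 20 of them were higher in the arterial class, while the position of the cells within the arterial tree was not measured.

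Of 18 venous genes tested, 7 were lower in arterial cells, 2 were higher and 9 did not pass, with a median log2 fold of -0.26. Over all genes 4.95% were lower and 8.47% higher. Without the block 4 venous genes were lower and 2 higher, beside 1.25% and 4.2% of all genes. Nr2f2, the regulator of venous fate, was at 77.2 and 77.5 CPM in arterial and 111 and 124 CPM in other endothelial cells, a log2 fold of -0.58 (SE 0.0727, adjusted p = 4.70e-09 by edgeR). The apelin receptor Aplnr was at 109 and 88.8 against 161 and 158 CPM, a log2 fold of -0.68 (SE 0.0699, adjusted p = 1.14e-11 by edgeR). RNA of both genes was lower in arterial cells, but not absent from them. A UMI of Nr2f2 was found in 12.4% and 13.3% of arterial cells thinned to 2000 UMIs, in 17.9% and 21.5% of other endothelial cells and in 13.2% and 17.0% of Ptprc-negative cells without any of the 6 endothelial genes. The last set may include mesenchyme, which is known to express Nr2f2, and the arterial share was no higher than its share, so Nr2f2 made by arterial cells and free RNA in the droplets cannot be told apart. The 2 members that rose were Vwf, the von Willebrand factor gene, at 195 and 196 against 59.5 and 49.6 CPM (1.88, edgeR adjusted p = 1.87e-30), and the scavenging chemokine receptor gene Ackr3, at 18.7 and 14.9 against 6.36 and 7.23 CPM (1.30). In the cells without endothelial genes Efnb2 and Hey1 were sparser, with Efnb2 found in 46.5% and 50.1% of thinned arterial cells, 25.04% and 25.8% of other endothelial cells and 10.1% and 11.49% of the cells without endothelial genes. Hey1 was found in 11.8% and 11.6%, 2.37% and 3.09% and 1.87% and 1.61%. Without thinning the arterial, other endothelial and remaining shares were 23.9% and 25.4%, 29.9% and 34.8%, and 20.7% and 26.3% for Nr2f2, and 68.2% and 72.0%, 36.7% and 40.3%, and 14.4% and 19.4% for Efnb2. No retained cell had fewer than 2000 UMIs, and the median depth of the cells without endothelial genes was 2805 and 3154.5 UMIs.

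**Figure D3:**
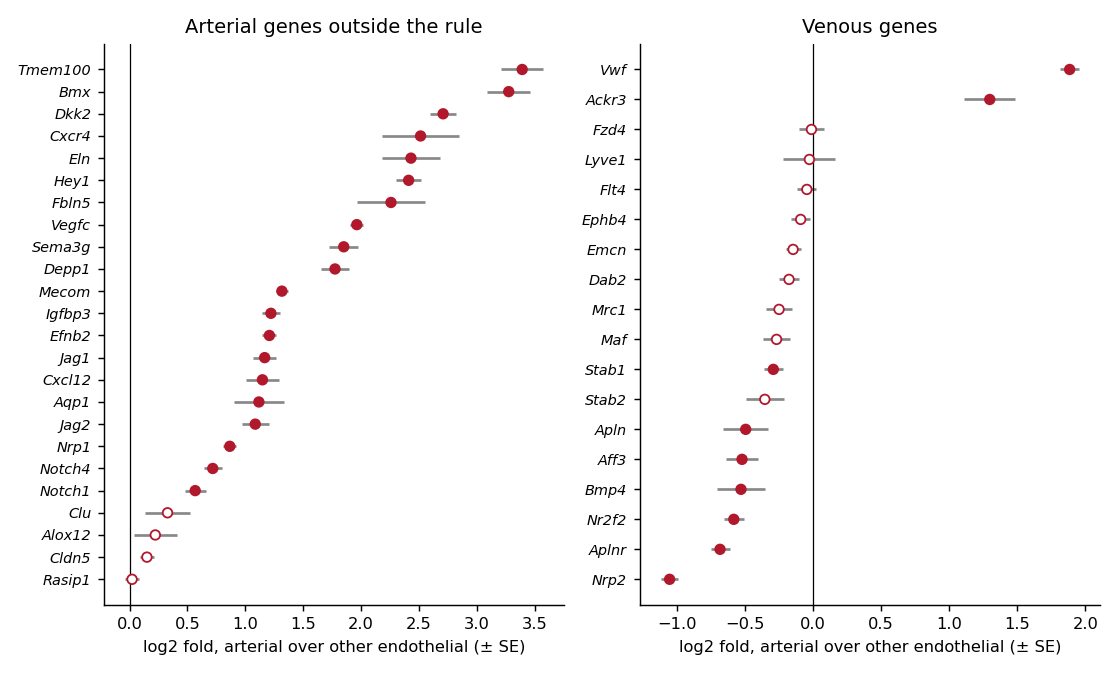
Log2 folds of arterial over other endothelial cells for the 24 arterial genes outside the rule and the 18 venous genes tested, with standard errors and with filled points for genes past an edgeR adjusted p of 0.05. The arterial genes run from 0.02 (Rasip1) to 3.39 (Tmem100), and the venous genes from -1.05 (Nrp2) to 1.88 (Vwf).

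Among the genes of the Notch pathway, the higher members included ligands, receptors and targets. Of 33 members tested, 8 were higher and 1 lower, beside 8.47% and 4.95% of all genes, with a median log2 fold of 0.06. Jag1, a Notch ligand, was at 55.8 and 53.8 CPM in arterial and 27.0 and 22.9 CPM in other endothelial cells, a log2 fold of 1.17 (SE 0.0984, adjusted p = 1.45e-14 by edgeR). Jag2 was at 37.1 and 38.8 against 18.9 and 17.8 CPM (1.09, edgeR adjusted p = 6.07e-11). Both ligands stood above the comparison class in both libraries, which 2 libraries per class easily allow. The share of all genes that did so was not counted. Of the receptors, Notch4 was at 98.9 and 97.5 against 61.8 and 59.7 CPM (0.72) and Notch1 at 161 and 192 against 115 and 129 CPM (0.57, edgeR adjusted p = 0.000131). Notch3, better known from smooth muscle, rose by 0.86. The member that fell was the coactivator gene Maml3, by 0.24, and it did not pass after thinning or without the block. The remaining 24, which include RBPJ itself, the processing enzymes and most modifiers, did not pass the test.

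Among the endothelial transcription factors, the SoxF relatives of Sox17 were higher in arterial cells. Of 20 members tested, 6 were higher and 1 lower, beside 8.47% and 4.95% of all genes, with a median log2 fold of 0.03. Sox7 was at 96.9 and 99.7 CPM in arterial and 43.0 and 43.2 CPM in other endothelial cells, a log2 fold of 1.21 (SE 0.0825, adjusted p = 2.46e-18 by edgeR). Sox18 was at 43.4 and 35.9 against 23.7 and 24.0 CPM (0.73, edgeR adjusted p = 1.25e-06), but did not pass after thinning. Epas1, the hypoxia-inducible factor of endothelium, was at 207 and 196 against 109.5 and 104 CPM (0.95, edgeR adjusted p = 4.96e-19). Gata2, a factor of endothelium and blood stem cells, had a log2 fold of 0.41 and the forkhead gene Foxc1 of -0.53. Both passed in the reported fit and neither passed after thinning.

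The VEGF and angiopoietin genes changed in both directions. Of 15 members tested, 7 were higher and 5 lower, beside 8.47% and 4.95% of all genes, with a median log2 fold of 0.01. Nrp1, the neuropilin of arteries, was at 873 and 964 CPM in arterial and 484 and 544 CPM in other endothelial cells, a log2 fold of 0.87 (SE 0.0567, adjusted p = 3.88e-18 by edgeR), in contrast to Nrp2 above. Esm1, a proteoglycan gene of VEGF-exposed tip cells, was at 31.7 and 34.1 against 14.3 and 13.2 CPM (1.30, edgeR adjusted p = 8.41e-12), with 0.81 and an edgeR adjusted p of 0.054 after thinning. Vegfa rose by 0.97. The 5 lower members were Nrp2 and Aplnr, the ligand gene Apln (-0.50), the vessel-destabilising ligand gene Angpt2 (-0.36) and the angiopoietin receptor gene Tek (-0.20). The last 3 had adjusted p-values of 0.0323, 0.0234 and 0.0115 by edgeR, and none of them passed without the block or after thinning. Tek changed sign after thinning and Angpt2 at a minimum of 5000 UMIs.

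Guidance cues, which endothelial cells share with axons, changed in a few members. Of 23 tested, 8 were higher and 2 lower, beside 8.47% and 4.95% of all genes, with a median log2 fold of 0.01. Sema3g, a secreted semaphorin known from arterial endothelium, was at 39.7 and 41.6 CPM in arterial and 11.497 and 11.6 CPM in other endothelial cells, a log2 fold of 1.85 (SE 0.126, adjusted p = 2.77e-18 by edgeR). The ephrin gene Efna1 rose by 1.04, the netrin gene Ntn4 by 0.91 and the Robo ligand gene Slit2 by 0.80. At 5000 UMIs per cell Ntn4 and Slit2 did not pass, and Ntn4 did not pass without the block or with DESeq2. Without the block 4 members were higher, beside 4.2% of all genes. Sema3d and the ephrin receptor gene Epha7 fell, with log2 folds of -0.89 and -0.68, and neither passed after thinning.

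The BMP and TGF-beta pathway had more members higher than lower. Of 21 members tested, 12 were higher and 2 lower, beside 8.47% and 4.95% of all genes, with a median log2 fold of 0.38. Bmp6, a ligand of endothelial BMP receptors, was at 33.1 and 24.3 CPM in arterial and 8.48 and 10.0 CPM in other endothelial cells, a log2 fold of 1.61 (SE 0.166, adjusted p = 4.71e-11 by edgeR), with 0.90 and no call at 5000 UMIs. Smad6, an inhibitory Smad induced by BMP signalling, was at 113 and 92.4 against 36.3 and 36.8 CPM, a log2 fold of 1.496 (SE 0.0866, adjusted p = 3.68e-20 by edgeR). Ltbp4 and Ltbp1, which hold latent TGF-beta in the matrix, were at 40.1 and 44.0 against 7.58 and 8.03 CPM (2.45) and at 67.5 and 70.4 against 34.9 and 35.0 CPM (1.01). These genes did not overlap between the classes, but the share of all genes that did not was not counted. The 2 lower members were Bmp4, at 10.0 and 10.2 against 16.4 and 13.8 CPM (-0.53, edgeR adjusted p = 0.0367), and Smad5 (-0.24, edgeR adjusted p = 0.0348). Neither passed without the block or after thinning.

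Genes of the vessel matrix had the highest share of raised members among the pathway lists. Of 23 members tested, 17 were higher and 2 lower, beside 8.47% and 4.95% of all genes, with a median log2 fold of 0.48. Eln, which encodes elastin, was at 9.02 and 19.8 CPM in arterial and 3.47 and 2.30 CPM in other endothelial cells, a log2 fold of 2.43 (SE 0.252, adjusted p = 8.66e-11 by edgeR), and its arterial libraries differed from each other. Fbln5, a fibulin that ties elastin to cells, was at 8.02 and 9.82 against 2.18 and 1.71 CPM, a log2 fold of 2.26 (SE 0.292, adjusted p = 1.26e-08 by edgeR). Fbn1, the fibrillin of the microfibril scaffold, was at 78.2 and 65.7 against 23.8 and 25.4 CPM (1.55, edgeR adjusted p = 3.02e-19). At 5000 UMIs per cell Eln and Fbln5 did not pass. The 2 lower members, Bgn and Emilin1, fell by 0.28 and 0.22, and they were named after their values were seen. Neither passed without the block or after thinning.

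Genes that respond to blood flow were higher in part. Of 19 tested, 9 were higher and 2 lower, beside 8.47% and 4.95% of all genes, with a median log2 fold of 0.37. Edn1, the vasoconstrictor endothelin, was at 37.1 and 35.9 CPM in arterial and 12.01 and 10.1 CPM in other endothelial cells, a log2 fold of 1.76 (SE 0.128, adjusted p = 3.56e-17 by edgeR), the opposite of its receptor Ednrb. The gap junction gene Gja1 was at 113 and 102 against 57.0 and 58.4 CPM (0.91) and the caveolin gene Cav1 at 103 and 126 against 60.4 and 65.3 CPM (0.90). Pi16 rose by 1.35 (edgeR adjusted p = 0.0241), and lost the call with DESeq2, without the block and without arterial cells that had a UMI of Runx1. Besides Ednrb, Tek was lower.

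Junction and adhesion genes rose in 9 of 16 members tested and fell in 1, with a median log2 fold of 0.27. Over all genes 8.47% were higher and 4.95% lower. Ocln, which encodes the tight junction protein occludin, was at 5.01 and 5.34 CPM in arterial and 0.899 and 1.23 CPM in other endothelial cells (2.25, edgeR adjusted p = 5.27e-06). Icam2 rose by 0.52 and the junction scaffold gene Tjp1 by 0.43. The member that fell was the laminin receptor gene Itga6, by 0.53 on the log2 scale.

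Some cell cycle genes were lower in arterial cells and none was higher. Of 30 genes of S phase, 16 were lower and 14 did not pass, with a median log2 fold of -0.23, and of 41 genes of G2 and M phase, 18 were lower and 23 did not pass, with a median of -0.22. Over all genes 4.95% were lower. After thinning, 18 of 30 S phase and 19 of 39 G2 and M phase genes were lower, beside 5.64% of all genes. Without the block the counts fell to 3 and 2, beside 1.25% of all genes. Dtl, a substrate receptor of the ubiquitin ligase that guards against re-replication, was at 46.4 and 48.4 CPM in arterial and 65.6 and 76.95 CPM in other endothelial cells, a log2 fold of -0.57 (SE 0.0882, adjusted p = 1.08e-06 by edgeR), and the replication helicase gene Cdc45 fell by 0.51. Cdc45 did not pass with DESeq2, without the block or after thinning, and Dtl did not pass at 5000 UMIs. Cenpe, a kinetochore motor, was at 126 and 126 against 159 and 170.3 CPM (-0.36, edgeR adjusted p = 1.72e-05). Summed over the lists, S phase RNA stood at 2547 and 2364 CPM against 2872 and 2906 CPM, and G2 and M phase RNA at 4902 and 4775 against 5492 and 5646 CPM. A UMI of Top2a or Mki67, 2 genes of dividing cells, was still found in 55.5% and 47.2% of arterial cells at 2000 UMIs, against 61.9% and 59.4% of other endothelial cells and 67.3% and 65.2% of cells without endothelial genes. Without thinning these shares were 71.5% and 67.4%, 74.96% and 74.7%, and 78.97% and 77.97%. Shares of cells in the cycle were not called from these values.

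Few metabolic genes passed the test. Of the 13 genes encoded by mitochondria, 6 were lower in arterial cells and none higher, with a median log2 fold of -0.18. mt-Nd1, a subunit of respiratory complex I, was at 2249.8 and 2802 CPM against 2922 and 3489 CPM (-0.32, edgeR adjusted p = 0.00119), and mt-Atp8 fell by 0.32. Only 2 of the 13 passed after thinning and none without the block. Of 74 nuclear genes of oxidative phosphorylation 1 passed, Atp5g1 at -0.17, and of 22 genes of the citric acid cycle 1, Suclg2 at -0.33. Of 25 genes of mitochondrial dynamics, Fis1 (0.25) and Bnip3l (0.21) were higher. Of 20 glycolytic genes 2 were higher and 2 lower. Over all genes 8.47% were higher and 4.95% lower. Counts of the size seen for nuclear oxidative phosphorylation, the citric acid cycle, mitochondrial dynamics and glycolysis thus say little about these lists. The 6 of 13 mitochondrially encoded genes lay above the share of lower genes, with the losses of calls given above. Slc2a1, the main endothelial glucose transporter, was at 175 and 181 against 121 and 132 CPM (0.52, edgeR adjusted p = 3.35e-09) and the hexokinase gene Hk1 had a log2 fold of 0.35, whereas the lactate transporter gene Slc16a1 had -0.71 and the phosphofructokinase gene Pfkl -0.26. Without the block Atp5g1, Suclg2, Fis1, Bnip3l, Hk1 and Pfkl did not pass, and of these Atp5g1 alone passed after thinning. Then 8 of the 74 nuclear oxidative phosphorylation genes were lower, beside 5.64% of all genes, and of 19 glycolytic genes 1 was higher and 4 lower.

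Because the gates were set by a dye, the pumps that can export such dyes were examined as a list of 5. Abcb1a, the P-glycoprotein gene, was at 11.02 and 17.1 CPM in arterial and 8.22 and 7.23 CPM in other endothelial cells of the low gate, a log2 fold of 0.94 (SE 0.192, adjusted p = 0.000220 by edgeR). Abcg2 was at 234 and 247 against 192 and 212 CPM (0.28, edgeR adjusted p = 0.000183), and did not pass without the block. Abcb1b, Abcc1 and Abcc4 did not pass. Whether pumps altered the sorting of these cells was not tested.

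**Figure D4:**
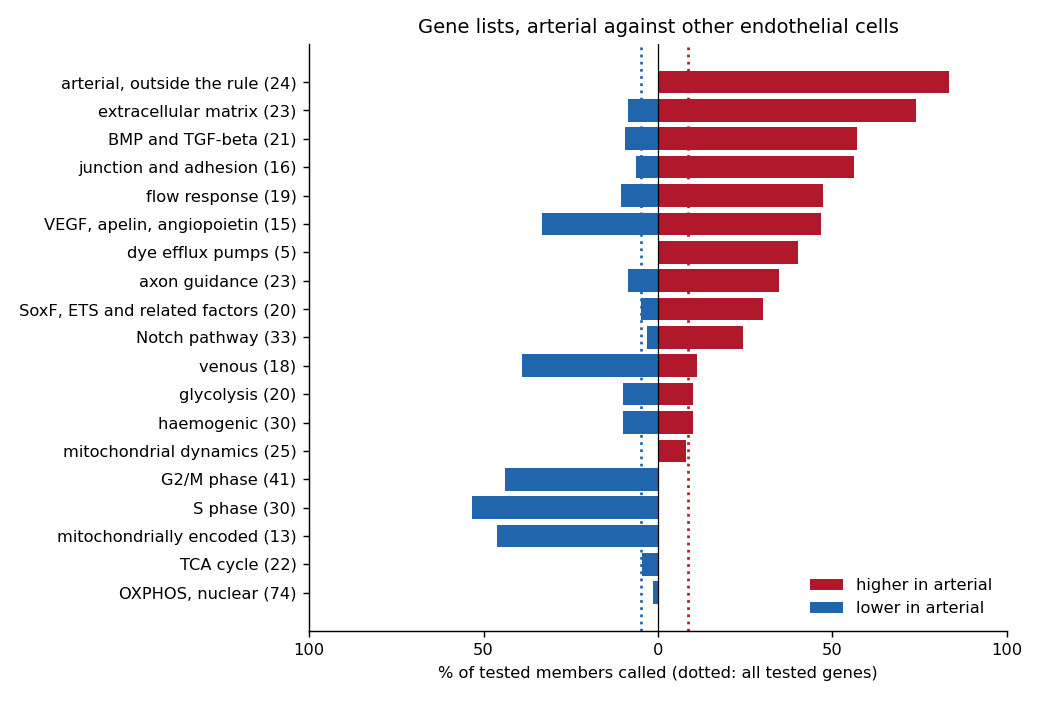
Number of members higher and lower in arterial than in other endothelial cells, as a percentage of the members tested in each list, with the percentage over all genes (8.47% higher, 4.95% lower) as lines. Some genes count in more than a single list. The arterial list (20 of 24) and the matrix list (17 of 23) reach furthest to the higher side, and the lists of S phase (16 of 30), of mitochondrially encoded genes (6 of 13) and of G2 and M phase (18 of 41) reach furthest to the lower side.

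Levels of several markers outside the rule followed the number of arterial genes a cell showed. After thinning every endothelial cell outside the left-out sets to 2000 UMIs, cells with 0, 1, 2 and 3 or more of the 6 rule genes numbered 3373, 1134, 255 and 89 in MMPlow 1 and 3718, 1308, 329 and 124 in MMPlow 2. Since the bins use the rule's genes, these values are a description and no test was made. Efnb2 was at 142, 268, 465 and 528 CPM in these bins of MMPlow 1 and at 162, 258, 409 and 706 CPM in MMPlow 2. Sox6 was at 32.5, 91.7, 329 and 798 CPM and at 43.3, 103, 329.9 and 557 CPM. Bmx was at 4.003, 11.47, 35.3 and 107 CPM and at 2.29, 10.3, 41.0 and 117 CPM. Each of these 3 genes was higher at every step in both libraries. The sparse Eln was at 3.71, 3.97, 19.6 and 16.9 CPM in MMPlow 1, on 3 UMIs in the last bin, and rose at every step in MMPlow 2. Vegfc ran from 77.2 to 663 CPM between the first and the last bin of MMPlow 1 and from 98.9 to 936 CPM in MMPlow 2, Mecom from 469 to 2259 and from 533 to 2557 CPM, and Hey1 from 10.5 to 129 and from 15.5 to 145 CPM. The venous genes Nrp2, Aplnr and Nr2f2 were lower in the last bin than in the first. Nrp2 was at 374, 286, 161 and 45.0 CPM in MMPlow 1 and at 380.2, 283, 144 and 80.7 CPM in MMPlow 2. Aplnr ran from 162 to 22.5 and from 149 to 48.4 CPM, and Nr2f2 from 112 to 28.1 and from 125 to 32.3 CPM, with 99.8 and 100.3 CPM in the middle bins of MMPlow 2. Mki67, the proliferation marker, ran from 258 to 174 and from 270.1 to 145 CPM. mt-Co1, a subunit of cytochrome c oxidase, ran from 4563 to 4922 and from 5307 to 5344 CPM.

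**Figure D5:**
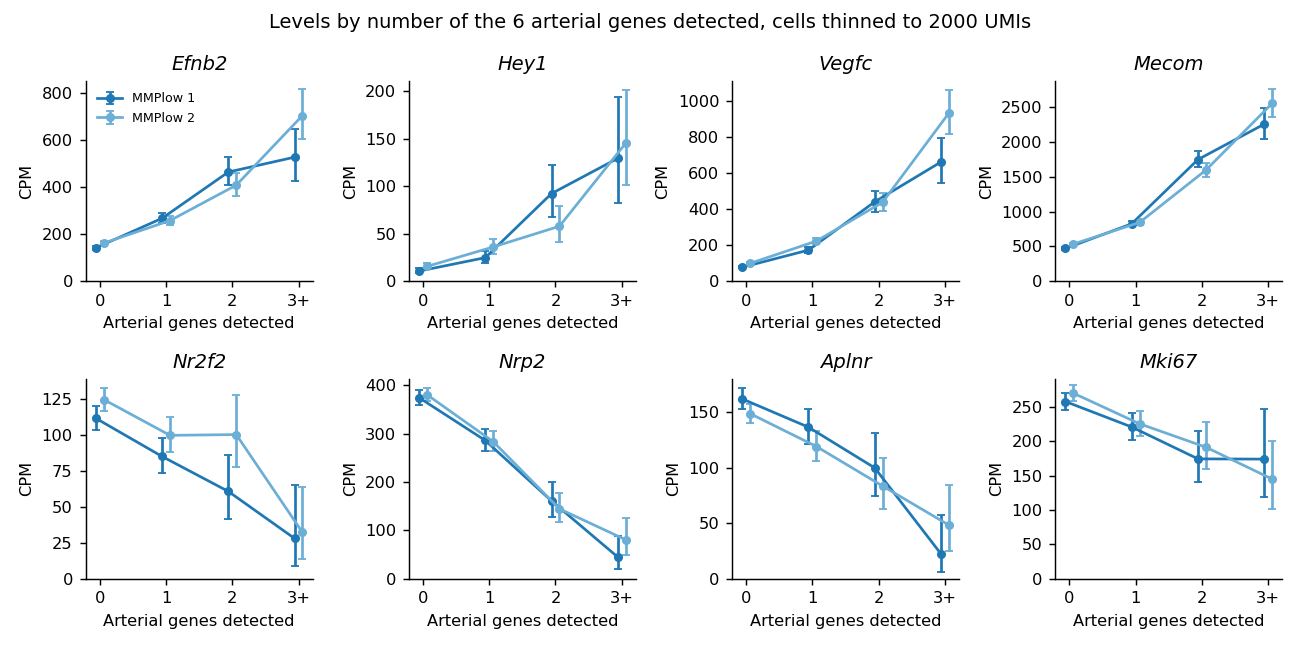
Levels in CPM of genes outside the rule in endothelial cells thinned to 2000 UMIs and binned by the number of rule genes detected, with 1 line per MMPlow library and 95% counting intervals. Efnb2 climbs from 142 to 528 CPM in MMPlow 1 and Nrp2 falls from 374 to 45.0 CPM.

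Markers of other cell types were checked over whole lists in the same sums. Summed CPM in the arterial cells of MMPlow 1 and 2, followed by the other endothelial cells, were 498 and 565 against 623 and 733 for 10 megakaryocyte genes, 329 and 322 against 382 and 391 for 10 macrophage genes and 207 and 159 against 562 and 232 for 10 erythroid genes. They were 79.5 and 74.7 against 75.9 and 59.5 for 10 smooth muscle and pericyte genes and 231 and 219.8 against 125 and 122 for 10 neural genes. None of these lists was at 0 as a whole in the arterial cells, and the members without a UMI there included Sox10 and Kcnj8 in MMPlow 1. Of the testable members, 4 of 10 megakaryocyte, 2 of 10 macrophage, 1 of 10 erythroid and 1 of 8 granulocyte genes were lower in arterial cells. Over all genes 4.95% were lower and 8.47% higher, so 1 member of a list this small says little. Without the block 2 megakaryocyte genes were lower and none of the other 3 lists, beside 1.25% of all genes. After thinning 1 of 9 megakaryocyte genes was lower, and none of the macrophage, erythroid and granulocyte genes, while 2 of 10 macrophage genes were then higher. Over all genes 5.64% were then lower and 8.6% higher. No mesenchymal or epithelial gene passed in either direction. In the smooth muscle list only Notch3 was higher, and in the neural list only Stmn2, at 177 and 185 against 72.6 and 67.5 CPM (1.41, edgeR adjusted p = 6.28e-25). In the endocardial list 2 of 7 genes tested were higher and 1 lower, with a median log2 fold of -0.05, and after thinning 1 was higher and 2 lower. Its member Npr3, which encodes the clearance receptor for natriuretic peptides, was at 127 and 139 against 31.1 and 31.9 CPM (2.11, edgeR adjusted p = 6.59e-30). In the lymphatic list 1 of 8 was higher, Sox18, and 2 lower, and without the block none was lower. With cells whose mesenchymal, macrophage, erythroid and neural RNA exceeded 1% of UMIs left out, 1898 genes passed, 1794 of them also in the reported fit.

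The third comparison asked how the arterial cells stood to endothelial cells with at least 2 UMIs of Runx1, the factor that endothelium needs to give rise to blood. The Runx1 class held 1339 cells, 602 and 731 of them in MMPlow 1 and 2. Runx1 itself served the rule and was at 26.4 and 21.6 CPM in arterial cells and 985 and 867 CPM in the Runx1 class. Arterial cells were higher in nearly all of the arterial list and lower in most of the haemogenic list. In all, 5853 of 13548 genes (43.2%) passed edgeR's test, 2931 (21.6%) higher and 2922 (21.6%) lower in arterial cells, so a share of members near these values says little about a list.

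Of 30 haemogenic genes tested, 23 were lower in arterial cells and 1 higher. Itga2b, which encodes the integrin CD41 of early blood progenitors and megakaryocytes, was at 18.4 and 15.2 CPM in arterial cells and 348 and 272 CPM in the Runx1 class, a log2 fold of -4.13 (SE 0.105, adjusted p = 2.19e-39 by edgeR). Meis1, a homeobox factor of stem cells, was at 79.2 and 78.5 against 473 and 451 CPM (-2.48), and Myb, needed for definitive blood formation, had a log2 fold of -2.32. The member that was higher was Erg, an ETS factor of endothelium and stem cells, at 144 and 163 against 104 and 89.3 CPM (0.76, edgeR adjusted p = 1.94e-11). The same haemogenic list was nearly level between arterial and other endothelial cells, where 8.47% of all genes were higher and 4.95% lower. It had 3 of 30 higher (Cd44 0.82, Gata2 0.41, Fli1 0.23) and 3 lower (Itga2b -0.60, Myb -0.40, Gpr183 -0.37). Of these 6 genes Cd44 alone passed without the block, and Gata2, Itga2b and Myb did not pass after thinning. Large folds outside the lists were P2ry14, a nucleotide-sugar receptor gene, at 5.34 and 4.06 against 284 and 215 CPM (-5.66), the scaffold gene Dlg2 at 8.02 and 17.5 against 432 and 468 CPM (-4.98) and the Mediator subunit gene Med12l at 15.0 and 11.95 against 368 and 333 CPM (-4.65). P2ry14 lies within Med12l in the genome (chr3:59114623-59153492 inside chr3:59005419-59318446), so counts of the pair could be confused where strand was not used in counting.

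Of the 24 arterial genes, 22 were higher in arterial cells than in the Runx1 class and 2 lower, with a median log2 fold of 1.86. The Runx1 class had Bmx at 4.67 and 4.16 CPM (2.84), Dkk2 at 10.8 and 12.2 CPM (2.75), Hey1 at 10.1 and 12.2 CPM (2.67) and Efnb2 at 92.1 and 73.4 CPM (2.16). Prnd, which encodes the prion-like protein doppel, was at 61.1 and 77.9 against 10.8 and 13.7 CPM (2.57), and Abtb2 at 148 and 153 against 31.3 and 21.5 CPM (2.63). The 2 lower members were Alox12 (-2.81) and Clu (-2.52). Megakaryocyte genes moved with this comparison, with 10 of 10 lower in arterial cells, and their summed level in the Runx1 class was 3616 and 3686 CPM. All 13 mitochondrially encoded genes were lower in arterial cells, with a median log2 fold of -0.61, and their summed level was 29463 and 35453 CPM in arterial cells and 52625 and 48513 CPM in the Runx1 class. Of 74 nuclear oxidative phosphorylation genes, 33 were higher in arterial cells and 3 lower. After thinning, when 2737 of 9461 genes passed (28.9%), 15.3% of all higher and 13.7% lower, only 4 of these 74 were higher and 1 lower, whereas the mitochondrially encoded list still had 13 of 13 lower.

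Only 88 cells of the Runx1 class had at least 2 of the arterial genes of the rule, and the comparison was repeated with these alone, a choice made after the data were seen. Then 1232 of 13130 genes passed (9.38%), 681 (5.19%) higher and 551 (4.2%) lower in arterial cells. The arterial list fell to 11 of 24 higher and 2 lower, with a median log2 fold of 0.74. Efnb2 had a log2 fold of 0.85 and Dkk2 of 1.23, whereas Hey1 (0.73, edgeR adjusted p = 0.051), Bmx (0.86, edgeR adjusted p = 0.216) and Tmem100 (0.21, edgeR adjusted p = 0.806) did not pass. The haemogenic list had 13 of 30 lower and 2 higher, with Itga2b at -3.25. Of the nuclear oxidative phosphorylation genes, 6 of 74 were higher and none lower. The mitochondrially encoded list had 3 of 13 lower, and mt-Nd1 did not pass (-0.19, edgeR adjusted p = 0.224). Of 9 megakaryocyte genes, 8 were lower. Their part in the haemogenic count was not tested.

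The fourth comparison asked whether arterial cells of the 2 gates differed. With 9 and 4 cells in MMPhigh 1 and 2 no test of genes was made, and the values below carry counting intervals only. The 13 cells held 2373 to 53324 UMIs each. The largest cell of MMPhigh 1, of 53324 UMIs, and that of MMPhigh 2, of 38354 UMIs, weigh most in the sums. The former passed the rule on Sox17 and a single UMI of Unc5b. Exactly 2 of the rule genes were found in 7 cells of MMPhigh 1 and 2 cells of MMPhigh 2, and Hey2 had no UMI in any of the 13. Efnb2 was at 288 CPM (95% counting interval 206 to 392) in MMPhigh 1 and at 294 CPM (95% counting interval 188 to 437) in MMPhigh 2, beside 338 and 353 CPM in the low gate, which lie within or near these intervals. Mecom was at 906 CPM (95% counting interval 755 to 1079) and 955 CPM (95% counting interval 755 to 1192), beside 1152 and 1195 CPM. Both are arterial genes that the rule did not use. Other members disagreed between the high libraries. Sox6 was at 446 CPM (95% counting interval 342 to 572) and 122 CPM (95% counting interval 58.7 to 225), and Vegfc at 179.8 CPM (95% counting interval 116 to 265) and 502 CPM (95% counting interval 360.2 to 681), on either side of the low gate's values of 221 and 213 and 307 and 340.0 CPM. Hey1 was at 28.8 CPM (95% counting interval 7.84 to 73.7) and 171 CPM (95% counting interval 93.7 to 288).

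Summed over the 24 arterial genes outside the rule, the arterial cells of MMPhigh 1 and 2 stood at 3848 and 5963 CPM, beside 4016 and 4175 CPM in MMPlow 1 and 2. Single cells of 53324 UMIs in MMPhigh 1 and 38354 UMIs in MMPhigh 2 weigh most in these and the following sums. The ratio of MMPhigh to MMPlow in pooled UMIs was 1.13 (1.06 to 1.20), with a 95% interval for counting error only. For the venous genes it was 1.39 (1.28 to 1.503), for the S phase genes 0.703 (0.634 to 0.779), for the glycolytic genes 1.43 (1.34 to 1.51), for the nuclear oxidative phosphorylation genes 1.00 (0.974 to 1.04) and for the Notch pathway 1.03 (0.951 to 1.12). The high libraries were apart by more than these intervals for some lists, with venous RNA at 2366 and 4028 CPM, S phase RNA at 2043 and 1151 CPM and G2 and M phase RNA at 7696 and 2449 CPM, so the ratios do not stand for the spread between libraries. Mitochondrially encoded genes summed to 49358 and 44212 CPM in the high gate and 29463 and 35453 CPM in the low gate, a ratio of 1.43 (1.41 to 1.46). Per cell, the median share of UMIs from these genes was 3.11% and 3.79% in the arterial cells of MMPlow and 4.93% and 4.44% in those of MMPhigh, a difference of 1.23 percentage points with an exact two-sided permutation p of 0.333, the smallest possible here. The 4 values did not overlap between gates. With at least 5000 UMIs per cell they were 2.06% and 2.60% in MMPlow and 4.93% and 4.44% in MMPhigh. Means of such medians in MMPlow and MMPhigh were 4.09% and 4.64% for the other endothelial cells and 5.63% and 13.8% for the Runx1 class. They were 3.75% and 4.87% for the Tll1 set, 3.55% and 5.32% for the Apcdd1 set and 3.975% and 2.96% for the Prox1 class, with no test made. Single arterial cells of the high gate were spread from 0.951% to 13.6%. Smooth muscle and pericyte markers had 0 and 2 UMIs in these cells and erythroid markers 3 and 0, while the neural list stood at 266 and 686 CPM, beside 231 and 219.8 CPM in the low gate. In MMPhigh 2 a single cell of 38354 UMIs had 0.128% of them from this list and the other 3 cells had 0.0062% to 0.0548%, and in MMPhigh 1 the highest share, 0.214%, was in a cell of 11192 UMIs. The part of this list in the values above was not tested.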

How the data were processed

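The matrices hold UMI counts per gene and barcode, whole numbers that the authors deposited without normalization. Per the file headers they came from Cell Ranger 7.0.1, whereas the submitters' processing notes list Cell Ranger 2.1.1 and mm10. The annotation, the strand setting and the selection of barcodes are not given in the sources used here. Coordinates are RefSeq's for GRCm38.p6. Deposited barcodes numbered 59928, 23715, 13939 and 4288 in MMPlow 1, MMPlow 2, MMPhigh 1 and MMPhigh 2.

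Retained cells were split by the stated rule into 8 disjoint classes. UMIs were summed per library and endothelial class, with at least 20 cells in both MMPlow libraries, and tested with edgeR 4.0.16 (R 4.3.3; filterByExpr, TMM, robust quasi-likelihood F-test, two-sided, Benjamini-Hochberg adjustment over all genes outside the rule, threshold 0.05). All 6 endothelial classes shared 1 estimate of spread, and the library was a block because the sums of a library share its cells' origin and free RNA. Shares of cells were tested by the same quasi-likelihood test on cell counts, with the retained cells of a library as its size. That fit had no filter, no TMM, no trend in spread and no block, and was adjusted over the 8 classes. Each standard error was the size of the log2 fold divided by the root of its F statistic. Arterial sums of MMPhigh were compared without a test since 9 and 4 cells lie below the minimum of 10.

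In simulated data over 13569 genes for the arterial against other endothelial comparison, 96%, 82%, 88% and 100% of genes changed by log2 -2, -1, 1 and 2 were recovered, and 0.0598% of the other genes were called. The simulation gave each gene 1 mean over all classes and libraries and all genes 1 spread. It held no effect of library and no choice of cells by their genes, so these rates need not hold for the real data. The SD of the log2 difference between MMPlow 1 and 2 over genes was 0.330 in arterial and 0.201 in other endothelial sums.

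Doublets were scored with Scrublet in scanpy 1.11.5. None was removed in the reported values, and the highest 6% of scores per library were left out as an alternative. Alternatives were DESeq2 1.42.0, other filters on genes and cells, thinning to 2000 UMIs, no block, and each library left out. Alternatives added after the data were seen restricted the Runx1 class, the Runx1 UMIs of arterial cells and other cells' RNA. Genes are named as the 12 largest folds in each direction past the test, in the same direction in both libraries and at 20 CPM or more, together with up to 4 members of each list in each direction and all members of the arterial and pump lists. The members, lists and tests were chosen with earlier results of these data known. Genes with a fold resting on 3 UMIs or fewer in a class were not named. Some genes that the rule would name are not reported here.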

Additional observations from a re-analysis of the deposited data

How the results depend on the processing

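The arterial share of retained cells was lower in MMPhigh under each alternative, with log2 folds from -5.27 to -4.38 and edgeR or DESeq2 adjusted p under the threshold. Leaving out single libraries gave -5.27 to -4.44, and the replicate block gave -4.74 (edgeR adjusted p = 0.0142). The labels do not state that replicate numbers pair libraries, and the deviations of the 8 classes correlated at 0.551 between same-numbered libraries, a single value from 2 pairs. The share of endothelial cells differed by 4.26 to 20.9 percentage points, with libraries left out by 10.4 to 12.04, and the median mitochondrial share by 0.893 to 2.35 points, each with an exact p of 0.333 or, once, 0.667. Against other endothelial cells, 897 genes passed with DESeq2 (896 of them also in the reported fit), 739 without the block (739 shared) and 749 at 5000 UMIs or more (580 shared), beside 1817. With DESeq2 75.4% of the calls were higher in arterial cells, without the block 76.996% and with no filter on low counts 53.4%, beside 63.1%. Thinning gave 1348 calls, 889 shared. Without the block, 3 of 20 transcription factors were higher and none lower (beside 6 and 1), when 4.2% and 1.25% of all genes were. Against the Runx1 class, 2737 passed after thinning, 3626 at 5000 UMIs and 1232 with the restricted Runx1 cells, beside 5853. Of 1570 comparisons of a named gene with an alternative, 127 lost the call, 4 gained it and 2 turned a called fold round. The other 1437 changed neither the call nor the sign of a called fold. Of these, 116 with MMPlow 1 left out and 116 with MMPlow 2 left out had no test, so no call could be lost. The 2 that turned round were Tek after thinning (0.14) and Angpt2 at 5000 UMIs (0.0084), both against other endothelial cells. Among the genes that did not pass in the reported fit, Alox12, Cldn5 and Rasip1 changed sign there under at least 1 alternative, with lowest folds of -0.02, -0.18 and -0.03. Of the named genes that passed against other endothelial cells, the call was lost at 5000 UMIs by Apln, Aqp1, Bmp4, Bmp6, Bnip3l, Cd44, Dtl, Eln, Emilin1, Epha7, Fbln5, Fis1, Gata2, Gpr183, Hk1, Icam2, Itga2b, Maml3, Myb, Ntn4, Pde3a, Ptchd1, Sema3d, Slc16a1, Slit2, Smad5, Suclg2, Vegfa, mt-Atp8 and mt-Nd1. With DESeq2 it was lost by Angpt2, Apln, Atp5g1, Bgn, Bmp4, Bnip3l, Cdc45, Egfem1, Emilin1, Epha7, Foxc1, Gata2, Gpr183, Hk1, Myb, Ntn4, Pfkl, Pi16, Sema3d, Smad5, Tek and mt-Atp8, and without the block by Abcg2, Angpt2, Apln, Atp5g1, Bgn, Bmp4, Bnip3l, Cdc45, Emilin1, Fis1, Fli1, Foxc1, Gata2, Gpr183, Hk1, Itga2b, Maml3, Myb, Ntn4, Pfkl, Pi16, Smad5, Suclg2, Tek, mt-Atp8 and mt-Nd1. After thinning it was lost by Angpt2, Apln, Bgn, Bmp4, Bnip3l, Cdc45, Emilin1, Epha7, Esm1, Fis1, Foxc1, Gata2, Hk1, Itga2b, Maml3, Myb, Pfkl, Sema3d, Smad5, Sox18, Suclg2 and mt-Atp8. With at least 3 arterial genes it was lost by Atp5g1, Bmp4, Egfem1, Epha7, Foxc1, Sema3d and Tek, with the highest doublet scores left out by Angpt2, Bgn, Emilin1, Pfkl and Sema3d, with arterial cells at 0 UMIs of Runx1 by Angpt2, Atp5g1, Bgn, Bnip3l, Emilin1, Gata2, Myb and Pi16, against cells with 0 arterial genes by Atp5g1 and Bgn and with no filter beyond 1 UMI by Bnip3l. The cause was not tested, except that stricter settings left fewer cells and genes. With MMPlow 1 or 2 left out no residual spread remained, so folds were given without a test, and all but that of Rasip1 kept their sign. A thinned comparison of genes between gates was not run, since 4 and 4 cells remained in MMPhigh.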

Other observations

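A single UMI of Runx1 was found in 11.7% and 10.6% of the arterial cells of MMPlow 1 and 2 and in 11.6% and 11.04% of the other endothelial cells. The rule had removed cells with 2 or more UMIs of Runx1 from both classes, and median depth was higher in arterial cells. These shares are therefore a description and were not tested. With the arterial cells that had a UMI of Runx1 left out, 1668 genes passed against the other endothelial cells, 1578 of them also in the reported fit.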
